A study of Mus musculus with 10 samples.

Results

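Dendritic cells take up antigen in tissues and present it to T cells. Conventional type 1 cells specialise in cross-presenting dead-cell antigen to CD8 T cells, type 2 cells mainly prime CD4 T cells, plasmacytoid cells are known for type I interferon, and cells of any conventional subset turn on the receptor CCR7 as they leave for the lymph node. In tumours the type 1 subset is rare and is best known for bringing tumour antigen to T cells. The 10 genes described here mark these subsets, and all 10 were found by symbol among the 23086 genes of the deposited table. They are Flt3, Itgax and Zbtb46, shared by conventional dendritic cells, Xcr1, Clec9a, Batf3 and Itgae of type 1, Cd209a of type 2, Siglech of plasmacytoid cells and Ccr7 of migrating cells.

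The RNA came from whole mouse tumours of BBN963 cells, a urothelial (bladder) tumour line whose name refers to the bladder carcinogen BBN. There were 5 tumours of the genotype ATM-WT and 5 of the genotype ATM-KO, labelled as knockouts of the DNA damage kinase ATM, each taken from a mouse at a fixed tumour size. The only contrast is ATM-KO against ATM-WT, so the question for these genes is how their messenger RNA differed with the tumour's ATM genotype. The labels give no mouse strain, sex or age, are silent on the number of ATM-KO clones, and do not tie each tumour to an animal of its own, so p-values measure the spread between these samples, which may be partly technical. Dendritic cells would be host cells in a whole tumour. A higher level can mean more such cells, more RNA per cell, or RNA of other cells, tumour cells included. Bulk RNA cannot tell these apart.

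Libraries summed to between 20.2 and 22.3 M normalized counts. The spacing of low values put the depth at very roughly 20.6 to 28.3 M reads, except for ATM-WT library A2 at 8.82 M. The estimate for A4, 25.4 M, is doubtful and may be far too high. Only 145 genes lay near 1 read there, against 368 to 776 in the others. ATM-WT libraries A2 and A4 stood apart, with 4824 and 4266 genes listed at 0 against 2225 to 3602 in the others, and with the lowest mean log2 level of 12 pan-leukocyte genes (8.62 and 8.74 against 9.50 to 9.99). The fold changes and calls of the members are therefore also given without these libraries, while the correlations were not recomputed without them. Atm itself was at 311 to 768 normalized counts in ATM-WT and 312 to 659 in ATM-KO. Its messenger RNA level therefore did not separate the genotypes, and the labels do not say how the knockout was made. The leukocyte marker Ptprc was present in every library, at 688 to 1642 normalized counts in ATM-WT and 1557 to 2178 in ATM-KO, while 7 of 7 epithelial markers were lower in ATM-KO.

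Of the 10 members, 6 were higher in ATM-KO and 0 were lower. In the same limma fit 22.1% of the 16517 genes tested were higher and 24.3% lower. With A2 and A4 left out, 5 of the 9 members tested were higher and 0 lower, against 23.5% and 24.5% of all genes. The median log2 fold change was 1.18 over the members and 0.00467 over all genes tested. Every ATM-KO library lay above every ATM-WT library for 5 members, Flt3, Itgax, Xcr1, Clec9a and Batf3, and 17.0% of all genes tested did the same, while 18.2% had every ATM-WT library above every ATM-KO library, as 0 members had. These counts describe a set chosen with earlier results of these data known. All 10 members reached the minimum mean of 10 normalized counts, but Xcr1 did so only through its ATM-KO level, and Cd209a and Siglech only through ATM-WT. Below, log2 fold changes are ATM-KO minus ATM-WT on log2(normalized count + 1), given with the standard error, and levels are compared between libraries of one gene, not between genes.

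**Figure D1:**
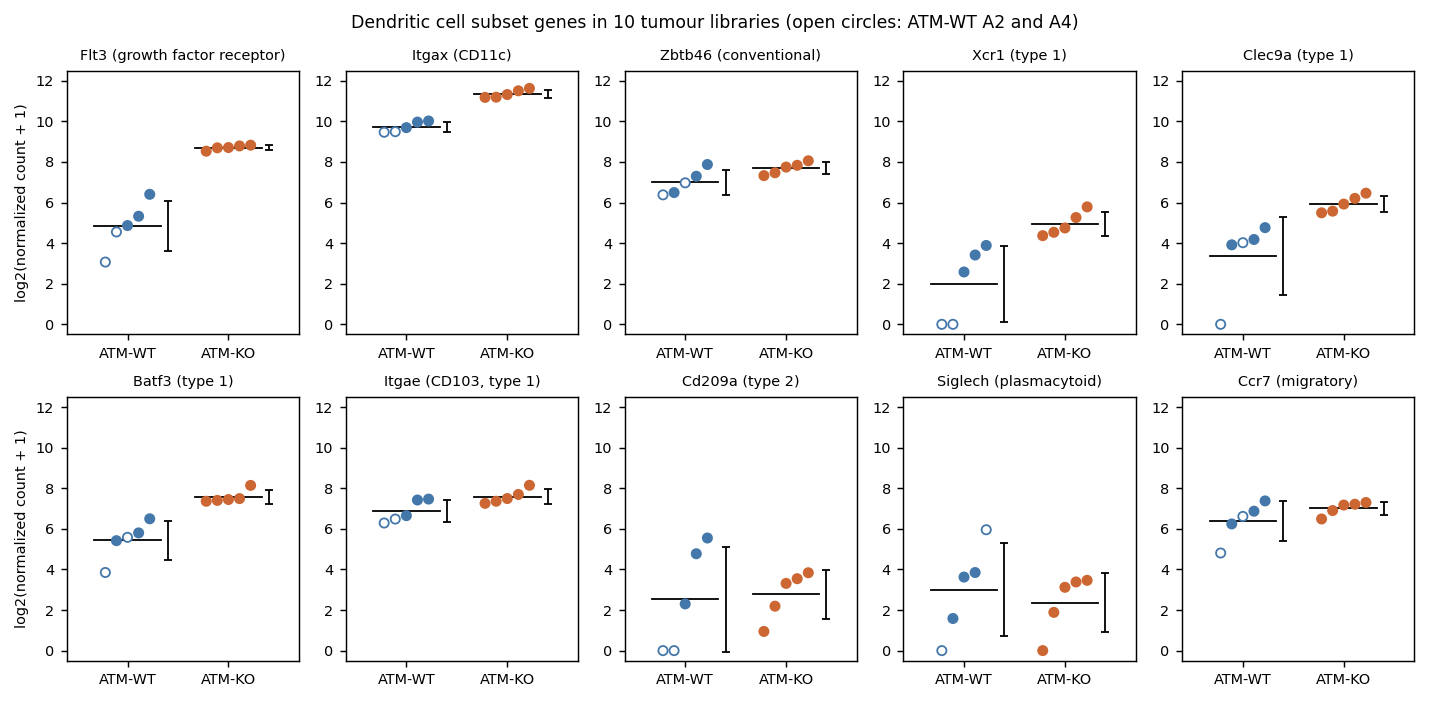
Level of each of the 10 genes, as log2(normalized count + 1), in each library (points) by genotype, with the mean (line) and SD of 5 libraries (bar at the side); open circles are ATM-WT libraries A2 and A4. The ATM-KO points lie wholly above the ATM-WT points for Flt3, Itgax, Xcr1, Clec9a and Batf3 and overlap them for the other 5 genes.

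Flt3, the receptor tyrosine kinase through which FLT3 ligand expands dendritic cells and their precursors, had the largest difference of the 10. Its normalized counts in ATM-WT libraries A1 to A5 were 28.2, 7.39, 83.8, 22.5 and 39.1, and in ATM-KO libraries A11 to A15 they were 369, 453, 418, 414 and 441. The lowest ATM-KO library thus held over 4 times the highest ATM-WT library, and the ATM-KO values were close together (coefficient of variation 7.72% against 80.0% in ATM-WT). The means were 36.2 ± 29.0 and 419 ± 32.4 (SD, n = 5 each), a log2 fold change of 3.87 ± 0.47 (adjusted p = 3.28e-05 in limma, and 0.0079 in a two-sided exact permutation test, the smallest value that all splits of 5 against 5 can give). The lowest ATM-WT value, in A2, rested on about 3 reads. Without A2 and A4 the log2 fold change of Flt3 was 3.18 ± 0.30 (adjusted p = 1.21e-05). Of all genes tested, 0.490% had a higher log2 fold change than Flt3.

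Itgax encodes CD11c, the integrin alpha X chain used to sort mouse dendritic cells, which many tissue macrophages also carry. ATM-WT libraries held 998, 719, 826, 706 and 1036 normalized counts and ATM-KO libraries 3159, 2909.6, 2338, 2320.45 and 2559. Both groups were tight and far apart, with means of 857 ± 154 and 2657 ± 367 and a log2 fold change of 1.64 ± 0.14 (limma adjusted p = 1.87e-06, and 1.47 ± 0.13 without A2 and A4). Zbtb46, a zinc finger factor that separates conventional dendritic cells from macrophages but is also made by endothelium, did not pass. Its ATM-WT values were 234, 82.2, 156, 125 and 89.0 and its ATM-KO values 159, 227, 214, 266 and 176. The groups overlapped, since ATM-WT library A1 was above 4 of the 5 ATM-KO libraries. The log2 fold change of Zbtb46 was 0.68 ± 0.29, with a 95% interval from 0.06 to 1.31 (limma adjusted p = 0.067, exact permutation p = 0.071). Without A1 it passed, at 0.90 (adjusted p = 0.011), and without A2 and A4 it was 0.47 ± 0.30 (adjusted p = 0.22).

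Among the type 1 genes, Xcr1 encodes the receptor for the chemokine XCL1 and is nearly restricted to type 1 dendritic cells. It was listed at 0 in ATM-WT libraries A2 and A4 and at 9.66, 4.97 and 13.8 normalized counts in A1, A3 and A5, against 54.2, 25.9, 37.4, 19.7 and 22.2 in ATM-KO. The gene was low throughout, at roughly 11, 5 and 14 reads in the ATM-WT libraries that had any, and the lowest ATM-KO library was still above the highest ATM-WT library. The log2 fold change of Xcr1 was 2.96 ± 0.81 (limma adjusted p = 0.0091). It was 1.65 ± 0.48 without A2 and A4 (adjusted p = 0.015).

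Clec9a encodes DNGR-1, a lectin with which type 1 dendritic cells sense actin filaments exposed by dead cells. Its ATM-WT values were 17.1, 15.2, 14.1, 0 and 26.2 normalized counts and its ATM-KO values 87.1, 59.8, 72.8, 46.7 and 44.1. The highest ATM-WT library and the lowest ATM-KO library were separated by a gap of under 20 normalized counts. The log2 fold change of Clec9a was 2.56 ± 0.77 (limma adjusted p = 0.015). The 0 in A4 weighed on this value, which was 1.71 without A4 (adjusted p = 0.0021) and 1.65 ± 0.36 without A2 and A4 (adjusted p = 0.0029).

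Batf3, the transcription factor on which type 1 cells depend for their development, is also made by activated T cells. It stood at 54.7, 46.9, 89.2, 13.4 and 41.7 normalized counts in ATM-WT and at 173, 179, 163, 168 and 281 in ATM-KO. In ATM-KO, 4 libraries were nearly alike and A15 was well above them. The log2 fold change of Batf3 was 2.14 ± 0.42 (limma adjusted p = 0.0011), and 1.66 ± 0.29 without A2 and A4 (adjusted p = 6.94e-04).

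Itgae encodes CD103, an integrin chain that pairs with beta 7, binds E-cadherin, and is shared by type 1 dendritic cells and tissue T cells. Its ATM-WT values were 170.4, 88.4, 176, 77.1 and 99.4 normalized counts and its ATM-KO values 282, 206, 163, 152 and 179. The groups overlapped. The log2 fold change of Itgae was 0.73 ± 0.28 with adjusted p = 0.0496, at the edge of the threshold of 0.05, while the exact permutation p was 0.063. It was lost (0.41 ± 0.26, adjusted p = 0.22) without A2 and A4, and also without A2, A4, A5 or any one of the ATM-KO libraries (0.58 to 0.81, adjusted p = 0.052 to 0.13). Among its partners, Itgb7, the beta 7 chain, rose from 200.4 ± 85.9 to 461 ± 149.6 normalized counts (1.26 ± 0.32, adjusted p = 0.0065; 0.72 relative to leukocyte genes, adjusted p = 0.15), and Cdh1, E-cadherin, fell from 9297 ± 4185 to 284 ± 70.2 (-4.89 ± 0.35, adjusted p = 6.09e-07).

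The genes of the other subsets gave no call. Cd209a, a mouse homologue of the human lectin DC-SIGN found on type 2 and monocyte-derived cells, was listed at 26.3, 0, 45.8, 0 and 3.93 normalized counts in ATM-WT and at 13.3, 0.924, 10.7, 8.93 and 3.56 in ATM-KO. The ATM-WT libraries spanned the whole range of ATM-KO. Cd209a had a log2 fold change of 0.24 ± 1.13, with an interval from -2.22 to 2.70 (limma adjusted p = 0.88), and its sign turned without A2 and A4 (-1.44 ± 0.87, adjusted p = 0.19) and relative to leukocyte genes (-0.30), so no direction is given. Its reads may also be split with the neighbouring Cd209 paralogues.

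Siglech, a sialic acid-binding receptor of mouse plasmacytoid cells, was listed at 1.99, 61.1, 11.3, 0 and 13.4 normalized counts in ATM-WT and at 10.02, 7.69, 0, 9.42 and 2.69 in ATM-KO. All values but that of A2 were at or below 13.4. Its log2 fold change was -0.63 ± 1.08, with an interval from -2.98 to 1.72 (limma adjusted p = 0.66). Without A2 and A4 its mean over 8 libraries was 7.07, under the minimum for testing. At these levels Cd209a and Siglech could have differed several-fold in either direction without detection.

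Ccr7, which guides mature dendritic cells along CCL19 and CCL21 to lymph nodes and is also carried by naive T cells, was clearly present in all libraries. Its values were 116, 27.04, 165, 96.9 and 74.7 normalized counts in ATM-WT and 119, 88.7, 143, 147 and 156 in ATM-KO. A3 of ATM-WT was the highest of all 10. The log2 fold change of Ccr7 was 0.63 ± 0.41, with an interval from -0.26 to 1.52 (limma adjusted p = 0.23), and 0.19 ± 0.29 without A2 and A4 (adjusted p = 0.63).

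**Figure D2:**
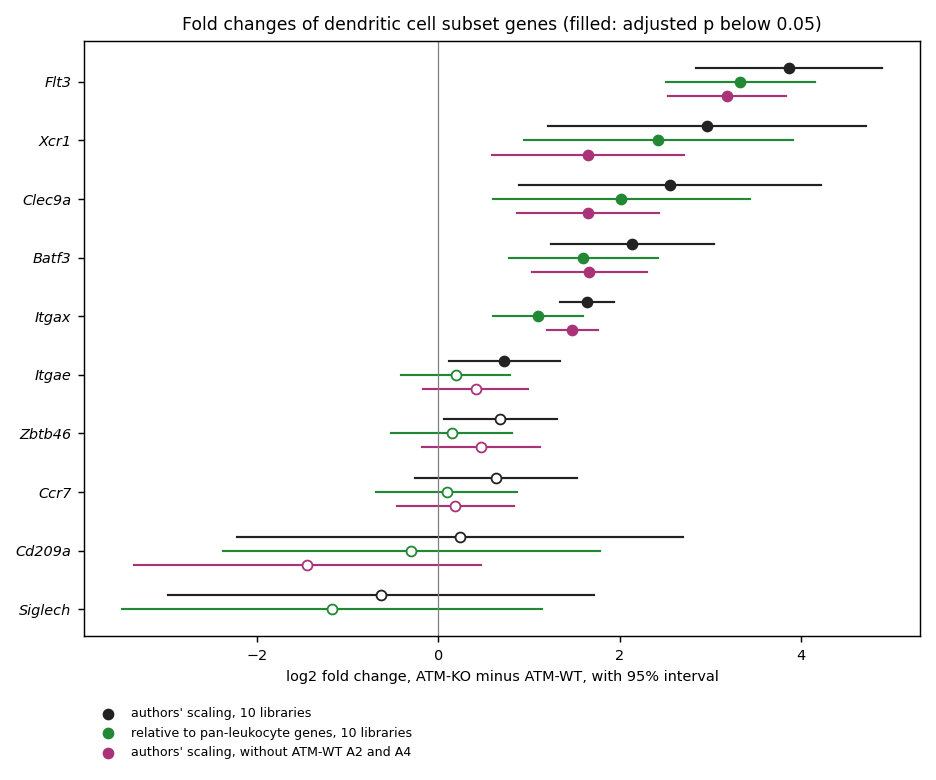
Log2 fold change (ATM-KO minus ATM-WT) of each of the 10 genes with its 95% interval, under the authors' scaling, relative to pan-leukocyte genes, and without ATM-WT libraries A2 and A4; filled points had adjusted p below 0.05. Flt3, Xcr1, Clec9a, Batf3 and Itgax are filled in all 3 versions, from 3.87 for Flt3 to 1.10 for Itgax, and Siglech was not tested without A2 and A4.

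Each member was also set against leukocyte genes as a whole. Of 12 pan-leukocyte genes 3 rose, with a median log2 fold change of 0.56, which became 0.13 without A2 and A4. After the mean log2 level of these genes was subtracted in each library and the limma fit repeated, the median of all genes tested was -0.53. On this scale 5 of the 10 members were higher and 0 lower, against 4.06% of all genes higher and 31.7% lower. Flt3 stood at 3.33 ± 0.39 (adjusted p = 5.52e-06), Xcr1 at 2.43 ± 0.70 (adjusted p = 0.013), Clec9a at 2.02 ± 0.67 (adjusted p = 0.028), Batf3 at 1.60 ± 0.39 (adjusted p = 0.0045) and Itgax at 1.10 ± 0.24 (adjusted p = 0.0018). The remaining members did not pass on this scale, with Itgae at 0.19 ± 0.28, Zbtb46 at 0.15 ± 0.31 and Ccr7 at 0.09 ± 0.37. Without A2 and A4 the members higher on this scale numbered 5, with Flt3 at 3.04, Batf3 at 1.53, Xcr1 at 1.51, Clec9a at 1.51 and Itgax at 1.34, where 15.1% of all genes were higher and 27.5% lower. Without ATM-KO library A11, A12 or A13, the call of Clec9a on this scale was lost (1.93 to 2.01, adjusted p = 0.056 to 0.070). Xcr1 passed only at the edge without A11 (2.26, adjusted p = 0.0497) and with sample weights (1.51, adjusted p = 0.0490).

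As a ratio that needs no scaling between libraries, Flt3 amounted to 1.72%, 1.07%, 5.43%, 2.58% and 2.53% of the Ptprc value in the ATM-WT libraries and 16.9%, 24.1%, 25.97%, 26.1% and 28.4% in the ATM-KO libraries. Ccr7 amounted to 7.53% ± 3.30 and 7.68% ± 2.42 of Ptprc (SD, n = 5 each), and Itgae to 9.98% ± 2.46 and 11.03% ± 1.31. The ratio of Flt3 thus separated the genotypes and those of Ccr7 and Itgae overlapped.

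To show what lies directly upstream of the genes that separated the genotypes, the promoter sequences of 4 of them are printed 5′ to 3′, from RefSeq on GRCm38.p6, up to the base before the annotated gene. Promoters were found for 8 of the 10 members (Itgae and Ccr7 had no entry). Capitals mark matches, on either strand of the 250 bases before the start, to GAGGAA (a core of sites for PU.1, a factor dendritic cells depend on), TGANTCA (the AP-1 site also read by BATF3 with a JUN partner), GGAA, any 2 bases and GAAA (a joint site of ETS factors and IRF8 or IRF4), GAAA, any 2 bases and GAAA (an IRF site), or CAGGTG (an E-protein site).
Flt3 promoter, chr5:147400490-147400739, minus strand: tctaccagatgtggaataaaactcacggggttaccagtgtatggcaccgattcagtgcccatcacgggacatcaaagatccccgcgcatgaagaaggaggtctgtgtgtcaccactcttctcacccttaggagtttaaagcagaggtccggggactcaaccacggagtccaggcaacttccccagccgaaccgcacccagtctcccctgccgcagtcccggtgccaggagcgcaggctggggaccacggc
Itgax promoter, chr7:128129300-128129525, plus strand: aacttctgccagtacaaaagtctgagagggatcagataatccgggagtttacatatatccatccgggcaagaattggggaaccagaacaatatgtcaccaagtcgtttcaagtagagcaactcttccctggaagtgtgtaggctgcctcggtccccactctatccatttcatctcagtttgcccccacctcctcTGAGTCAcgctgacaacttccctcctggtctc
Xcr1 promoter, chr9:123862030-123862279, minus strand: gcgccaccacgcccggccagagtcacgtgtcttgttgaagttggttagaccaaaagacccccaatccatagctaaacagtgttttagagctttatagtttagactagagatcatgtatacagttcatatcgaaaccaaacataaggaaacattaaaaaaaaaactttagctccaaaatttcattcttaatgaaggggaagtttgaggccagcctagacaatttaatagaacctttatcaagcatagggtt
Clec9a promoter, chr6:129408612-129408861, plus strand: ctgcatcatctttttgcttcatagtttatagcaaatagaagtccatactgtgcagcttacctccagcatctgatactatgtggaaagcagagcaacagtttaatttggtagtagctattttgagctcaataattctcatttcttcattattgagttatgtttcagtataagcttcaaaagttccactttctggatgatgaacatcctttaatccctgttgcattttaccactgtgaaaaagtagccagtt

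Of these 4, the Itgax window alone held a match, an AP-1 site 56 to 50 bases before the start. Positions count from the start used in the promoter table, and the printed Itgax sequence of 226 bases stops short of it, at the outermost annotated start of the gene. Among the other members with an entry, Batf3 held a GAGGAA, Zbtb46 an AP-1 site and a CAGGTG, Siglech a CAGGTG, and Cd209a no match. For comparison, 6.75% of 32851 promoter windows held the AP-1 site, 23.3% GAGGAA, 17.2% CAGGTG, 2.98% the IRF site and 2.3% the ETS and IRF site. The last pair can overlap each other. The window of Zbtb46 lies inside a longer form of the gene. A match describes letters, not binding, and no match says only that these letters are not in the window.

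In each list below, counts are to be read against the shares of all genes tested, 22.1% higher and 24.3% lower. Those shares were 23.5% and 24.5% without A2 and A4, and 4.06% and 31.7% relative to pan-leukocyte genes. The growth factors and regulators of dendritic cells were mixed, with 7 of 16 tested genes higher, 2 lower and a median of 0.30. Irf8, the factor that sets up type 1 and plasmacytoid fates, rose from 535 ± 218 to 1091 ± 130.1 normalized counts (1.12 ± 0.25, limma adjusted p = 0.0024). Irf4, which is needed by type 2 and migrating cells, rose from 23.9 ± 11.9 to 69.4 ± 9.80 (1.61 ± 0.35, adjusted p = 0.0024). Csf2rb, the shared receptor chain for GM-CSF, rose from 797 ± 254 to 1309.5 ± 188, and the type 1 regulator gene Nfil3 from 444 ± 89.2 to 614 ± 35.2. Klf4 fell from 1327 ± 565 to 599 ± 58.5 and Notch2 from 2691 ± 539 to 2093 ± 139. Both act in type 2 subsets and in epithelium. Id2, a type 1 regulator used in many cell types, was at 1198 ± 256 and 1102 ± 207 (-0.11 ± 0.16, adjusted p = 0.59). Without A2 and A4, 5 of the 16 were higher and 2 lower. Relative to pan-leukocyte genes 3 were higher and 2 lower. Irf8 (0.58, adjusted p = 0.040), Irf4 (1.07, adjusted p = 0.039) and Csf2, the GM-CSF gene (2.33, adjusted p = 0.020), were the higher ones. Csf2 was at 16.8 ± 18.6 normalized counts in ATM-WT, with 0 in A4, and 69.0 ± 33.8 in ATM-KO. It did not pass on this scale without A2 and A4 (1.25, adjusted p = 0.066). Csf2rb (0.23, adjusted p = 0.43) and Nfil3 (-0.05, adjusted p = 0.91) did not pass on this scale.

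Among ligands of the member receptors, Flt3l, the FLT3 ligand, rose from 130 ± 40.8 to 201 ± 29.8 (0.68 ± 0.25, adjusted p = 0.043), but not without A2 and A4 (0.52, adjusted p = 0.065) or relative to pan-leukocyte genes (0.14, adjusted p = 0.74). Xcl1, the XCR1 ligand made by NK and T cells, was at 17.4 ± 17.5 and 49.7 ± 33.8 (2.05 ± 0.87, adjusted p = 0.072). Of the CCR7 ligands, Ccl19 was near the detection limit and not tested, at 2.36 ± 4.34 and 0.935 ± 2.09, and Ccl21a was at 1068 ± 1011 and 1131 ± 1003 (0.39 ± 1.11, adjusted p = 0.80). Icam1, which binds CD11c among other integrins, fell from 1079.5 ± 295 to 347 ± 88.4.

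Other type 1 genes went both ways, with 5 of 13 tested higher, 3 lower and a median of 0.53. The list gave 5 higher and 3 lower without A2 and A4 (median 0.46). Relative to pan-leukocyte genes it gave 4 higher and 4 lower (median -0.01), and Naaa did not pass on that scale (0.52, limma adjusted p = 0.057). Ly75, the antigen uptake receptor DEC-205, rose from 766 ± 240.2 to 2431 ± 223 (1.73 ± 0.20, limma adjusted p = 2.36e-05), Naaa from 855 ± 297 to 1691 ± 65.8, Cd36, a scavenger receptor, from 51.6 ± 26.3 to 187 ± 91.0, and Septin3 from 28.8 ± 30.3 to 214.8 ± 56.5. The fifth gene that rose was Wdfy4, needed for cross-presentation, from 169 ± 91.1 to 573 ± 304 (1.86 ± 0.51, adjusted p = 0.0092). Cadm1 (from 706 ± 222 to 433 ± 94.8), Tlr3 (from 839.8 ± 258 to 415 ± 134) and Cd24a (from 9598 ± 2959 to 4832 ± 150.0) fell. These 3 are also made by epithelial and other cells of a tumour, and 7 of 7 epithelial markers fell in the same libraries. Whether this bears on the falls was not tested. The genes that rose can likewise be made by cells other than type 1 dendritic cells, and which cells the rises came from was not tested.

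In the list of other type 2 genes 3 of 13 tested rose and 2 fell, with a median of 0.35. The lectin gene Mgl2 rose from 351 ± 211 to 1166 ± 161 (1.92 ± 0.32, adjusted p = 3.63e-04), S100a4 from 2960 ± 2009 to 6060.1 ± 691 and Cd300a from 250.2 ± 101 to 456 ± 107. The list gave 2 higher and 2 lower without A2 and A4, with a median of 0.03 and Cd300a no longer passing (adjusted p = 0.054). Relative to pan-leukocyte genes it gave 1 higher, Mgl2, and 3 lower with a median of -0.19, and neither S100a4 (adjusted p = 0.065) nor Cd300a (adjusted p = 0.23) passed. Itgam, CD11b, fell from 794 ± 261 to 369 ± 164 (-1.15 ± 0.32, adjusted p = 0.0099) and Clec4a1 from 228 ± 125 to 80.8 ± 35.9. Both are also carried by monocytes and macrophages, and Itgam by neutrophils. Of 6 neutrophil markers tested 5 fell, and of 16 monocyte and macrophage markers 1 rose and 1 fell. Their part in the fall of Itgam was not tested.

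In the list of other plasmacytoid genes 4 of 11 tested rose and 3 fell, with a median of 0.57. Those that rose are widely expressed outside plasmacytoid cells. They were the interferon-induced Bst2 (from 2863 ± 1234 to 9284 ± 1282), Irf7 (from 755 ± 311 to 1330 ± 276), Runx2 (from 1424 ± 430.0 to 2638 ± 228) and Lag3 (from 124 ± 39.8 to 459 ± 206). The list gave 4 higher and 3 lower without A2 and A4 (median 0.33), and 2 higher and 3 lower relative to pan-leukocyte genes (median 0.03). On the latter scale neither Irf7 (limma adjusted p = 0.41) nor Runx2 (limma adjusted p = 0.18) passed. Ly6d fell from 6263 ± 4969 to 6.41 ± 2.79, Smim5 from 76.0 ± 50.8 to 5.65 ± 5.55 and Tcf4 from 3160.0 ± 1034 to 1926 ± 184. Ly6d and Smim5 reached the minimum mean for testing only through their ATM-WT levels. Ly6d is also a gene of stratified epithelium and Tcf4 is used by stromal cells. Pacsin1 (0.13, limma adjusted p = 0.88), Tlr7 (0.51, adjusted p = 0.47), Tlr9 (1.14, adjusted p = 0.10) and Lair1 (0.57, adjusted p = 0.13) were tested and not called. Some genes were too low to test, among them Ccr9 at 3.84 ± 4.30 and 4.20 ± 2.58 normalized counts and Spib at 3.39 ± 3.37 and 2.64 ± 1.66.

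Of the genes of mature or migrating dendritic cells 10 of 24 tested were higher and 4 lower, with a median of 0.78, while Ccr7 itself was not called. The chemokine genes Ccl17 and Ccl22, whose products attract CCR4-bearing T cells, rose from 48.1 ± 30.1 to 362 ± 172 (2.88 ± 0.46, limma adjusted p = 2.70e-04) and from 69.5 ± 28.2 to 259 ± 69.0 (1.94 ± 0.32, adjusted p = 2.90e-04). Pdcd1lg2, the PD-1 ligand PD-L2, rose from 35.4 ± 11.2 to 136 ± 24.2 and the signalling adaptor gene Traf1 from 193 ± 69.8 to 593 ± 98.2. Marcksl1 fell from 3914 ± 272 to 1973 ± 278, Tmem123 from 3792 ± 746 to 2447 ± 175, Birc3 from 536 ± 65.5 to 361 ± 44.4 and Socs2 from 1160 ± 358 to 775 ± 91.6. The actin bundler gene Fscn1, a marker of mature dendritic cells that tumour cells also make, was at 6805 ± 1216 and 8245 ± 374 (0.30 ± 0.12, adjusted p = 0.069). Without A2 and A4, 7 were higher and 4 lower, and relative to pan-leukocyte genes 5 were higher and 4 lower. Ccl17, Ccl22, Pdcd1lg2 and Traf1 were among those higher on the latter scale (1.14 to 2.34).

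**Figure D3:**
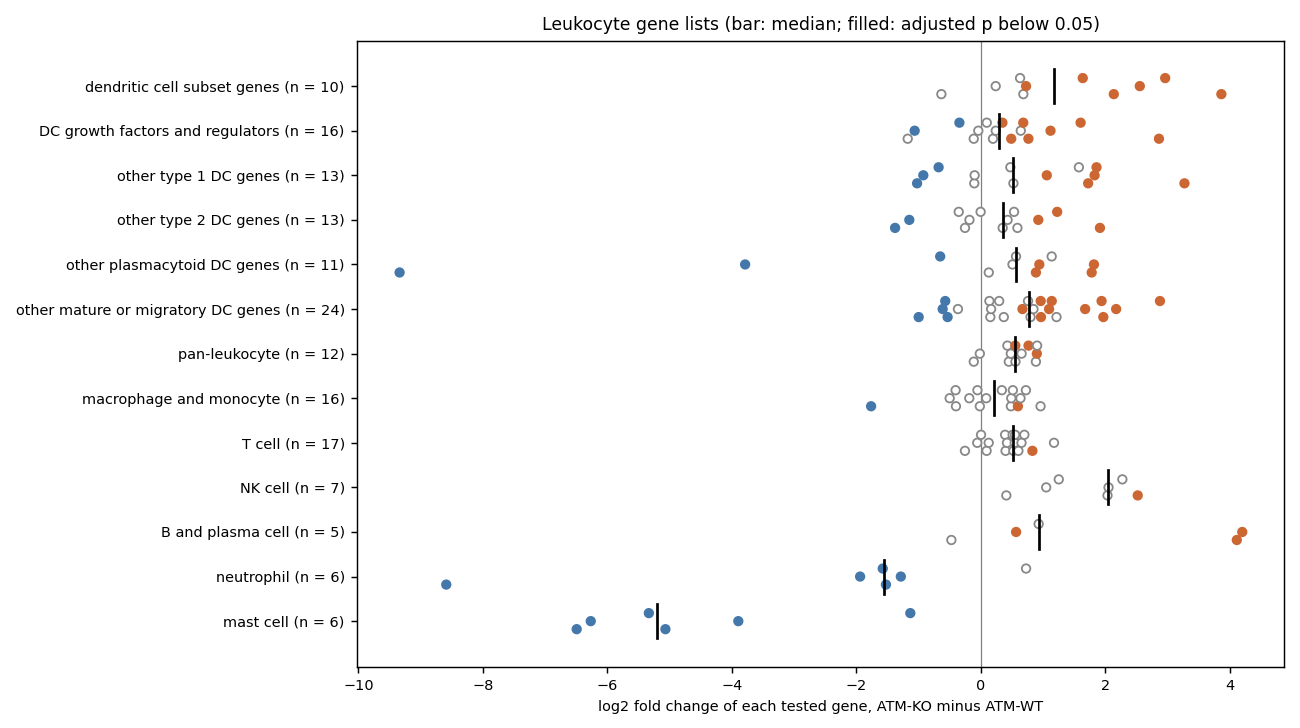
Log2 fold change (ATM-KO minus ATM-WT) of each tested gene, one point per gene, in the 10 dendritic cell subset genes and in 12 other lists; bars are medians, filled points had adjusted p below 0.05 (orange higher, blue lower). The subset genes have a median of 1.18, macrophage and monocyte genes 0.21, T cell genes 0.51, and mast cell genes -5.20. Most mast cell genes reached the minimum mean for testing largely through ATM-WT.

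Several members are carried by other leukocytes, whose markers in the same libraries were as follows. Macrophage and monocyte genes gave 1 higher and 1 lower of 16 tested, with a median of 0.21, and their summed level was 25977 to 73829.6 normalized counts in ATM-WT and 44434 to 65711 in ATM-KO. This list gave 0 higher and 4 lower both without A2 and A4 (median -0.23) and relative to pan-leukocyte genes (median -0.33). T cell genes gave 1 higher and 0 lower of 17 (median 0.51, and 0.08 with 0 higher without A2 and A4), with summed levels of 791 to 2455 and 1876 to 3737. NK cell genes gave 1 higher and 0 lower of 7 tested, with a median of 2.04 that was 0.56 without A2 and A4, and summed levels of 132 to 679 and 609.6 to 1625. B and plasma cell genes gave 3 higher and 0 lower of 5 tested, with summed levels of 559 to 807 and 1240.25 to 1785. The B cell receptor gene Cd79a rose from 20.8 ± 17.4 to 234 ± 23.0 while the B cell marker Ms4a1 (2.54 ± 4.82 and 1.94 ± 1.88) was near 0. Langerin, Cd207, the marker of Langerhans cells, was also near 0, at 1.83 ± 3.63 and 2.73 ± 3.16, and of the 4 genes of that list tested 1 rose and 2 fell, among the latter Epcam, which is also an epithelial gene. Of fibroblast genes 7 of 7 fell, and of endothelial genes 0 of 5 rose and 1 fell. The part of these cells in the values of Itgax, Batf3, Itgae and Ccr7 was not tested.

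The members were compared for how they varied within genotypes, as Pearson's r of log2 values after subtracting each genotype's mean, over 10 libraries that share depth and leukocyte content. This is a description. Xcr1 (r = 0.91) and Cd209a (r = 0.90) followed the mean of the pan-leukocyte genes most closely, and Siglech did not (r = -0.08). Xcr1 and Cd209a were both listed at 0 in A2 and A4, the libraries with the lowest pan-leukocyte mean. How far A2 and A4 set these r was not tested. The closest pairs of members were Flt3 with Ccr7 (r = 0.84) and Itgax with Xcr1 (r = 0.84). Within the 5 libraries of each genotype, r was 0.89 in ATM-WT and -0.14 in ATM-KO for the first pair, and 0.97 and 0.57 for the second. After the pan-leukocyte mean was subtracted over all 10, r was 0.68 for the first pair and -0.47 for the second. Xcr1 and Clec9a had r = 0.68, and 0.52 after the subtraction. Among 77 other dendritic cell genes, those most like Flt3 were Cd83 (r = 0.92) and Irf4 (r = 0.90), and those most like Xcr1 were Csf2rb (r = 0.96) and Irf8 (r = 0.93). After the subtraction these became 0.84, 0.62, 0.07 and 0.51. The closest for the other members were Cadm1 for Itgax (r = 0.86), Notch2 for Zbtb46 (r = 0.80), Cd86 for Clec9a (r = 0.84), Pdcd1lg2 for Batf3 (r = 0.82), Cd300a for Itgae (r = 0.87) and Cd209a (r = 0.95), Klrd1 for Siglech (r = 0.72) and Tcf4 for Ccr7 (r = 0.94). After the subtraction r was 0.59 for Cd300a with Itgae and 0.38 with Cd209a, and 0.63 to 0.91 for the others of these pairs.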

How the data were processed

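RNA of 10 mouse tumours was sequenced, 5 ATM-WT and 5 ATM-KO. Per the labels' protocols, a sequencing company extracted RNA from frozen tumour and made the libraries. The deposited file holds 1 normalized count per gene and library, a signal that is never negative and not whole. STAR, Salmon and DESeq2 are named in the submitters' processing notes; which versions, options, build and gene models were chosen is not given here. Each column carries a genotype and a number that no sample label repeats, so it was assigned to its group only.

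The worth of 1 read was sought in the spacing of values up to 20 reads; 59.2% to 69.2% of them were within 0.05 of a multiple of it, so reads could not be recovered as whole numbers, depths are rough, and shallow libraries have more counting error in low genes. Genes with a mean of at least 10 were fitted on log2(value + 1) by limma 3.58.1 (R 4.3.3), moderated with a mean-variance trend; p-values were adjusted by Benjamini-Hochberg over all genes, with 0.05 as the threshold. On this scale the fold of low genes depends on the pseudocount and on zeros. A second fit subtracted the mean log2 of 12 pan-leukocyte genes in each library. The exact permutation tests (two-sided, every split of 5 against 5) are unadjusted. On simulated data for this comparison (16026 genes) 2-fold changes were found in 42.9% and 4-fold changes in 80% of the genes given them, with 5 of 15830 unchanged genes called. Only 91 and 105 genes were given these changes, while 3649 genes were called higher and 4017 lower in the real data. The simulated rates therefore need not hold for the real data. All 10 members are named; from each of 18 other lists, up to 4 tested genes past the threshold with the smallest p per direction, a few ligands and regulators, and the genes most like each member could be named. Wdfy4, Apol7c, Itgb2, Clec12a, Batf, Batf2, Cd209f, Ms4a1, Cd207, Ccr9, Spib, Atm and Ptprc are named outside that rule, after their values were seen. So are Pacsin1, Tlr7 and Tlr9. The members and lists were chosen with earlier results of these data known. Alternatives covered the pseudocount, filter, scaling, eBayes settings, sample weights and left-out libraries. Python 3.11.15, numpy 2.4.6, pandas 2.3.3 and matplotlib 3.10.9 were used.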

Additional observations from a re-analysis of the deposited data

Results flagged for a closer look

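The level of Batf3 in ATM-KO library A15, 281 normalized counts, stood apart from the other 4 ATM-KO libraries, with a gap of 0.869 of the group's range against a critical value of 0.71 (Dixon's test at 95%). Without A15 the log2 fold change of Batf3 was 2.00 (limma adjusted p = 0.0042). The level of Siglech in ATM-WT library A2, 61.1 normalized counts or roughly 24.8 reads, stood apart from the other ATM-WT libraries with a gap of 0.781. A2 had the lowest estimated depth, although that of A4 is doubtful, and the lowest pan-leukocyte level. Chance flags about 1 in 20 groups, and 20 groups of 5 were examined here.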

How the results depend on the processing

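The members called higher numbered 4 to 8 under the 22 alternatives (5 to 7 with 1 library left out), and 0 were called lower under each. Flt3, Itgax and Batf3 passed in all 22, and Xcr1 and Clec9a in the 21 in which they were tested, since a minimum mean of 50 left them out. The ranges of log2 fold change were 3.18 to 4.26 for Flt3, 1.08 to 1.71 for Itgax, 1.58 to 2.60 for Batf3, 1.65 to 3.48 for Xcr1 and 1.65 to 3.07 for Clec9a. Xcr1 was 3.39 with a pseudocount of 0.5 and 1.91 with 5. Itgae passed in 8 of 22. Zbtb46 passed in 3 (quantile normalization, 1.07; sample weights, 0.79; without A1, 0.90) and Ccr7 in 1 (quantile normalization, 1.11, adjusted p = 0.042). Quantile normalization moved the median of all genes to 0.13 and gave 4434 genes higher and 3376 lower, against 3649 and 4017. Relative to pan-leukocyte genes 671 of all genes were higher and 5236 lower, and relative to Ptprc 621 and 5107. On the pan-leukocyte scale, 3 members were higher with a minimum mean of 50, since Xcr1 and Clec9a were not tested, and leaving out 1 library gave 4 or 5. All genes higher on that scale numbered 1829 with sample weights and 2467 without A2 and A4, and 480 to 959 with 1 library left out; the cause was not tested. No paired analysis was possible because the table's columns carry none of the sample numbers in the labels. Depth limits Xcr1, Clec9a, Cd209a, Siglech and, in A2, Flt3, with values of a few reads or 0 in some libraries. The depth of A4 is uncertain, so Batf3 (13.4 normalized counts) and Flt3 (22.5) may also rest on few reads there.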

Other observations

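Close relatives of the members were measured in the same libraries, and 6 of 24 tested were higher and 3 lower (median 0.32). Of all genes tested, 22.1% were higher and 24.3% lower, so the rises were near the general share. There were 5 higher and 5 lower (median -0.09) without A2 and A4, and relative to pan-leukocyte genes 2 higher, Clec7a and Clec1b, and 5 lower (median -0.22). The beta-glucan receptor gene Clec7a, a C-type lectin of the same gene cluster as Clec9a, rose from 1209 ± 238 to 4601 ± 572 normalized counts (1.94 ± 0.14, limma adjusted p = 6.28e-07) and Clec1b from 5.999 ± 4.04 to 47.7 ± 12.8. Clec1b reached the minimum mean for testing only through its ATM-KO level. Clec2d, an NK receptor ligand, fell from 952 ± 257 to 495 ± 107. Clec12a was at 330.5 ± 167 and 358 ± 85.5 (0.25 ± 0.33, adjusted p = 0.56). Of the integrin chains related to CD11c, Itgal rose from 422 ± 74.3 to 736 ± 187 (0.79 ± 0.18, adjusted p = 0.0030), Itgam fell, and the shared beta chain gene Itgb2 rose from 932 ± 399 to 1606 ± 238. Kit, a receptor kinase of the FLT3 family and a mast cell marker, fell from 318 ± 91.6 to 142 ± 29.8 (-1.13 ± 0.24, adjusted p = 0.0018). Of 6 mast cell markers tested 6 fell. Their list summed to 677 to 2736 normalized counts in ATM-WT and 113 to 187 in ATM-KO, most of the latter from Kit. The other mast cell markers therefore reached the minimum mean for testing largely through their ATM-WT levels. The BATF3 relatives Batf (52.5 ± 17.8 and 65.4 ± 12.9) and Batf2 (70.7 ± 45.1 and 95.3 ± 49.8) did not pass. Of 6 other Cd209 genes, Cd209f was the only one tested, at 14.7 ± 17.6 and 7.41 ± 7.82.

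Apol7c, which is expressed by activated type 1 dendritic cells, rose from 22.02 ± 11.9 to 91.6 ± 33.4 normalized counts (2.18 ± 0.50, limma adjusted p = 0.0032), and was higher relative to pan-leukocyte genes too (1.64, adjusted p = 0.016). It was named after its value was seen, from the list of 24 mature or migrating dendritic cell genes, of which 10 were higher and 4 lower.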
